A study of Mus musculus with 19 samples.

Results

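The genes described here are 10 markers of liver zonation and targets of Wnt signalling, chosen by gene name from the 54838 genes of the deposited liver RNA-Seq table. Glul, Axin2, Lgr5, Rnf43, Tbx3, Rhbg, Slc1a2, Oat and Cyp2e1 mark the pericentral zone or follow Wnt signals there, and Cyp2f2 marks the periportal zone. All 10 passed the filter on low values and were among the 14743 genes tested. The 19 libraries came from livers of male C57BL/6JOlaHsd mice aged 4 weeks at the start, 1 library per mouse. The mice ate a modified Western diet (WD, 50.5% of energy from fat, with 1.25% cholesterol, sucrose, fructose and reduced choline) or a normal diet (ND, 13.9% of energy from fat) for 4 months. Micro-osmotic pumps implanted under anesthesia delivered saline or the test compound AN1284, at 1 or 5 mg/kg/day, for 8 weeks. The groups were WD saline (n = 3), WD with AN1284 at 1 mg/kg/day (n = 4), WD with AN1284 at 5 mg/kg/day (n = 3), ND saline (n = 3), ND with AN1284 at 1 mg/kg/day (n = 3) and ND with AN1284 at 5 mg/kg/day (n = 3). The labels give no litter or cage, and all groups carried a pump, so no group was without surgery.

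The liver lobule is arranged between the portal tract, where blood enters, and the central vein, where it leaves. Endothelial cells of the central vein secrete Wnt ligands and R-spondins, which stabilise β-catenin in the nearest hepatocytes and switch on a pericentral programme of glutamine synthesis and xenobiotic metabolism. Hepatocytes near the portal tract receive little Wnt signal and carry out urea synthesis, gluconeogenesis and amino acid breakdown. Glul (glutamine synthetase), Slc1a2 (a glutamate transporter), Oat (ornithine aminotransferase) and Rhbg (an ammonium transporter) handle glutamate and ammonia around the central vein, and Cyp2e1 is a cytochrome P450 of alcohol and drug metabolism. Axin2 (a scaffold of the β-catenin destruction complex), Rnf43 (a ubiquitin ligase that removes Frizzled receptors) and Tbx3 (a transcription factor) are induced by Wnt signals, the first 2 as negative feedback, and Lgr5 is a receptor for R-spondins. Cyp2f2 is a cytochrome P450 of periportal hepatocytes.

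The libraries held 23326800 to 32596067 reads counted in genes. Values are normalized counts, the reads of a gene divided by the size factor that the authors derived for each library (0.759 to 1.271). The hepatocyte markers Alb, Apoa1, Ttr and Fgb were present in every library, and the summed normalized count of 7 hepatocyte markers was 1587000 to 1879000 in WD saline livers against 3354000 to 3614000 in ND saline livers. Whole liver was sequenced, so fewer cells of a type and less RNA per cell cannot be told apart. The 3 ND saline libraries stood apart from the other 5 groups in 2 genes chosen after their values were seen, the heat shock gene Hspa1b (1335 ± 608 normalized counts, against group means of 142 to 403) and the clock gene Nr1d1 (334 ± 175, against group means of 1167 to 2376). The heat shock genes Dnajb1 and Hspa1a and the clock gene Dbp overlapped another group. Dnajb1 was 935.7 to 1338 in ND saline and 881.9 to 956.9 in WD livers at 5 mg/kg/day. Hspa1a was 21.5 to 80.5 in ND saline and 47.6 to 72.5 in WD saline. Dbp was 31.6 to 51.1 in ND saline and 39.2 to 121.6 in ND livers at 1 mg/kg/day. ND saline still had the highest group mean of Dnajb1 and the lowest of Dbp. The separation in Hspa1b and Nr1d1 touches every comparison with ND saline below, and its part in them was not tested.

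Promoter windows of 7 members were found in RefSeq (GRCm38.p6), and those of Glul, Axin2, Slc1a2, Cyp2e1 and Cyp2f2 are shown because these 5 genes carry the 3 patterns described below. Each run is the 250 bases before the annotated start, 5′ to 3′ on the strand of the gene. Capitals mark the letters CTTTGA, the core of the site bound by the TCF/LEF partners of β-catenin, or TCAAAG, the same core on the opposite strand. The windows lie at chr1:153899679-153899928 (plus strand) for Glul, chr11:108920099-108920348 (plus strand) for Axin2, chr2:102706188-102706437 (plus strand) for Slc1a2, chr7:140763569-140763818 (plus strand) for Cyp2e1 and chr7:27119705-27119954 (plus strand) for Cyp2f2. The Slc1a2 window lies inside the annotated gene, before one of its internal starts.
Glul: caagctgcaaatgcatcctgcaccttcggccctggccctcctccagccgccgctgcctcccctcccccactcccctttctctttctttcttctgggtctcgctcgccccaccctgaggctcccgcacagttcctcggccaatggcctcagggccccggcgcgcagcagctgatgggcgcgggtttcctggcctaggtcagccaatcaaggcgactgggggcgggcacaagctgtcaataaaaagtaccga
Axin2: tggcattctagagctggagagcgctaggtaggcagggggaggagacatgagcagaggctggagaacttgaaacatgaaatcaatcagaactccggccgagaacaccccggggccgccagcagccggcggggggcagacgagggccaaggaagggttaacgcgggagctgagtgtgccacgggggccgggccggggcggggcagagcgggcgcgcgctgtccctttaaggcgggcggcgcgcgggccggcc
Slc1a2: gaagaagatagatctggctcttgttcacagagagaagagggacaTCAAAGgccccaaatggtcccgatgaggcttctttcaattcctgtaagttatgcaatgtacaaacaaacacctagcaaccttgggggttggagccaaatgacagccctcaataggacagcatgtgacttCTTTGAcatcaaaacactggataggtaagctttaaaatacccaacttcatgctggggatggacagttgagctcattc
Cyp2e1: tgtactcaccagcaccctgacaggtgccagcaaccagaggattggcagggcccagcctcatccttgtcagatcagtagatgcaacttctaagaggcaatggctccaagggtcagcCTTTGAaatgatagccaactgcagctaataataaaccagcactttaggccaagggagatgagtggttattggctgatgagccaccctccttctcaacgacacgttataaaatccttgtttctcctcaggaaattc
Cyp2f2: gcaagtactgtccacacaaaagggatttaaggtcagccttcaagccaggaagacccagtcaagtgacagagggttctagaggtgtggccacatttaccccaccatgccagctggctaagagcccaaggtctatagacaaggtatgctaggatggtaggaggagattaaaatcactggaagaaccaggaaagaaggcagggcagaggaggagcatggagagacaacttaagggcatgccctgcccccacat

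The core stood in the windows of 2 members, Slc1a2 (1 copy on each strand) and Cyp2e1 (1 copy), and in none of the windows of Glul, Axin2, Rnf43, Oat or Cyp2f2. Of all 32851 RefSeq windows of that length, 13.8% held it on either strand. Base composition differed widely among the members. The Axin2 window had 69.2% G and C with 24 CG dinucleotides and that of Glul 64.8% with 15, whereas that of Cyp2f2 had 51.6% with none and that of Slc1a2 44.8% with 1 (median of all windows 52.4% and 6). The Cyp2e1 window alone of the 8 held a TATAAA box, which 7.59% of all windows held on the strand of the gene. Lgr5, Rhbg and Tbx3 were without an entry.

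The members differed widely in abundance. Per kilobase of exon, averaged over the 19 libraries, Cyp2e1 had 72934 normalized counts, Cyp2f2 14717, Glul 10321 and Oat 8174, so that the 4 metabolic genes led. Slc1a2 (341) and Tbx3 (146) came next, and Rnf43 (71.7), Axin2 (53.7), Rhbg (35.8) and Lgr5 (17.5) were lowest. The range over libraries was narrowest for Glul, whose highest library was 1.80 times its lowest, and widest for Tbx3, at 6.95 times. Rhbg, Axin2 and Lgr5 rested on the fewest reads, with lowest libraries of 40, 64 and 92 reads. Antisense transcripts had small counts beside the members, such as Tbx3os1 (a mean of 76.4 reads per library against 996.3 for Tbx3) and Gm15883 (47.5 against 28756 for Cyp2f2). On the same strand, 1110028F11Rik had 36.8 against 489.2 for Rnf43, and Fgfr2 had 952 against 19414 for Oat. The strand setting and the handling of reads shared by overlapping genes are not given in the sources used here, so the effect of these overlaps is not known.

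**Figure D1:**
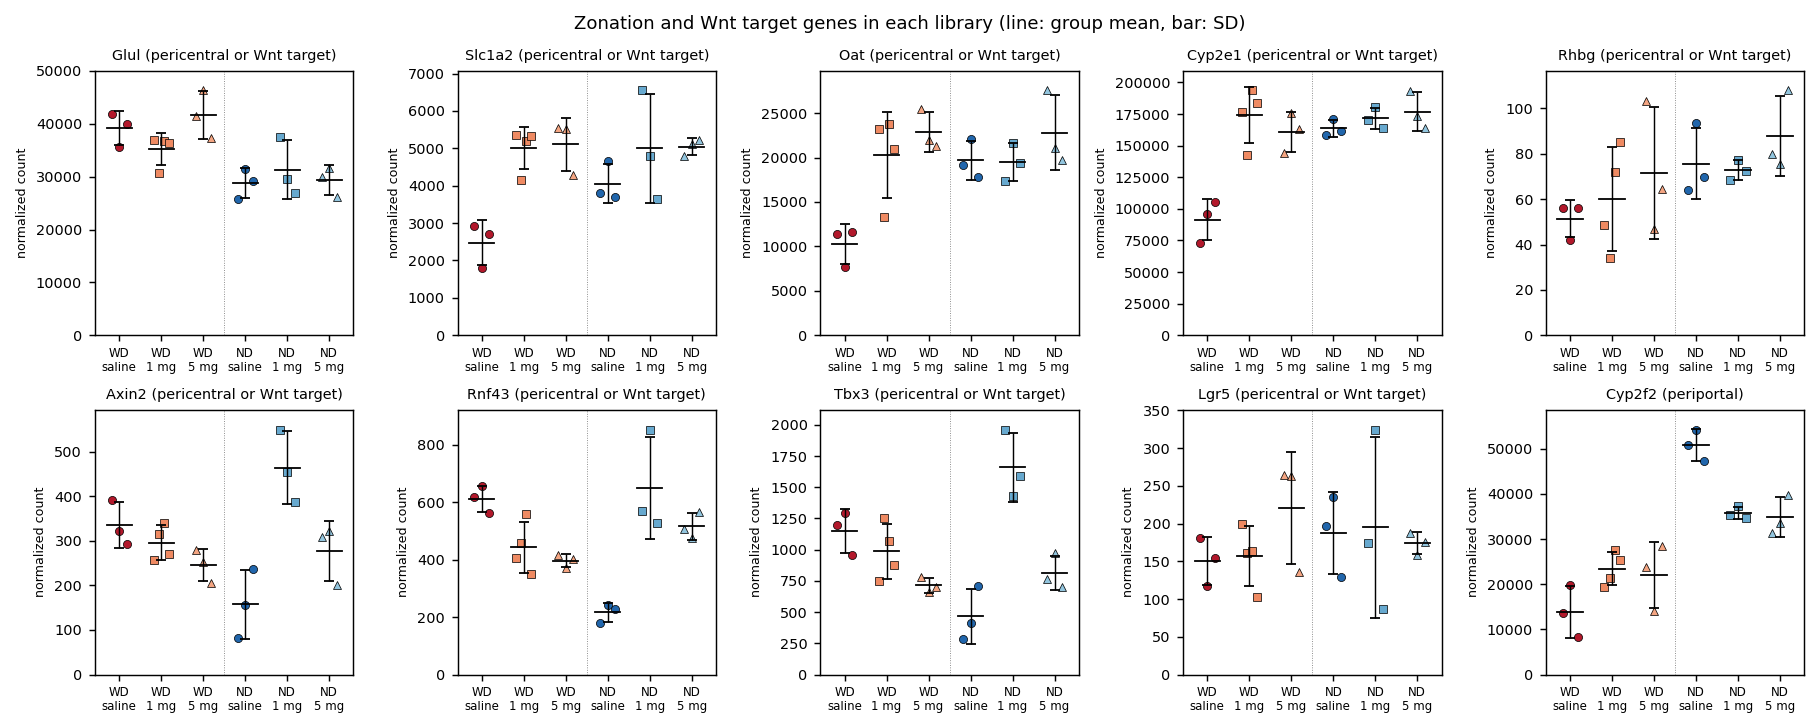
Normalized counts (y axis, linear, from 0) of the 10 genes in each of the 19 libraries (points), by diet and AN1284 dose in mg/kg/day (x axis). Lines are group means and bars are SD. Slc1a2, Oat and Cyp2e1 were lowest in WD saline livers, Axin2, Rnf43 and Tbx3 were lowest in ND saline livers, and Cyp2f2 was highest in ND saline livers.

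WD saline and ND saline livers were compared to ask how the diet affected zonation. The 9 pericentral and Wnt target genes did not move together. Slc1a2, Oat and Cyp2e1 fell with WD, Glul, Axin2, Rnf43 and Tbx3 rose, and Lgr5 and Rhbg did not pass the test. Periportal Cyp2f2 fell 3.9-fold. Of the 10 members 8 passed (limma, Benjamini-Hochberg adjusted p below 0.05), 4 higher and 4 lower, where 53.0% of all genes tested passed.

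Cyp2e1 had 73293, 95634 and 105607 normalized counts in WD saline livers, against 158123, 170979 and 161928 in ND saline livers. The groups did not overlap, and the mean fell 1.81-fold (log2 fold change -0.85, SE 0.14, adjusted p = 0.000101). Oat, which passes the nitrogen of ornithine to glutamate, had 11442, 7730.3 and 11648 in WD saline livers and 19136, 22122 and 17817 in ND saline livers. It fell 1.94-fold, again without overlap (log2 fold change -0.96, SE 0.20, adjusted p = 0.000709). Slc1a2 had 2927, 1793 and 2718 in WD saline livers and 3810.0, 4652 and 3710.1 in ND saline livers. Its 1.66-fold fall (log2 fold change -0.73, SE 0.19, adjusted p = 0.00404) did not hold when libraries were scaled by their total counts (log2 fold change -0.30, adjusted p = 0.196). That scaling shifted the median change of all genes by 0.43, and gave 7581 higher and 1350 lower genes, where the authors' size factors gave 4136 and 3684. The other 7 calls held under it.

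Glul went the other way. It had 41898, 35606 and 39943 normalized counts in WD saline livers and 25769, 31542 and 29138 in ND saline livers, with no overlap, and rose 1.36-fold (log2 fold change 0.44, SE 0.14, adjusted p = 0.0109). Without ND saline replicate 1, its lowest library, the log2 fold change was 0.37 and the call was lost (adjusted p = 0.0556). Rhbg, the fourth gene of glutamate and ammonia handling, had 56.3, 42 and 56 in WD saline livers against 63.9, 93.5 and 69.5 in ND saline livers. All 3 WD values were lower, yet the difference did not pass (log2 fold change -0.54, SE 0.31, adjusted p = 0.146), with a 95% interval of -1.19 to 0.10.

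The 3 Wnt feedback and response genes were higher with WD. Axin2 had 392, 322 and 292 normalized counts in WD saline livers against 81.8, 155 and 236 in ND saline livers, a 2.3-fold difference (log2 fold change 1.20, SE 0.28, adjusted p = 0.00163). Rnf43 had 616, 655 and 562 in WD saline livers against 179, 241 and 229 in ND saline livers (log2 fold change 1.50, SE 0.18, adjusted p = 2.63e-06). Tbx3, which represses gene expression in pericentral hepatocytes, had 1198, 1293 and 956 in WD saline livers against 282, 409.6 and 711 in ND saline livers (log2 fold change 1.39, SE 0.25, adjusted p = 0.000228). None of the 3 genes overlapped between the groups, but the share of all genes without overlap is not given here. ND saline replicate 1 was the lowest library for each of the 3 genes, and each call held when it was left out. Lgr5 had 181, 118 and 154 in WD saline livers and 197, 236 and 129 in ND saline livers. These overlapped (log2 fold change -0.29, SE 0.38, adjusted p = 0.534), and the 95% interval of the log2 difference was -1.08 to 0.50.

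Cyp2f2 showed the largest change of the 10. It had 13542, 19747 and 8233 normalized counts in WD saline livers, against 50883, 54264 and 47316 in ND saline livers (log2 fold change -1.96, SE 0.25, adjusted p = 8.85e-06). Only 2.06% of all genes tested had a lower log2 fold change. The highest WD saline library was below the lowest ND saline library, and the spread within WD saline was wide.

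**Figure D2:**
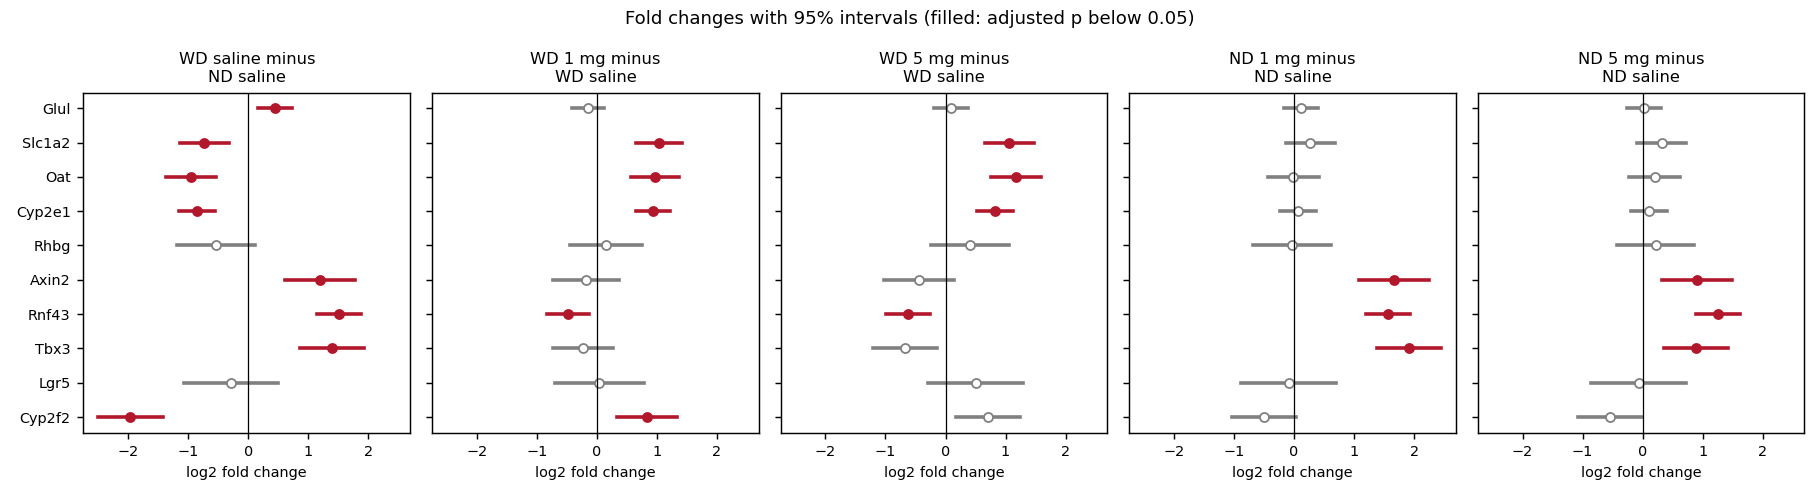
Log2 fold changes (x axis) of the 10 genes (rows) in 5 comparisons (panels), with 95% intervals from limma. Filled red points passed an adjusted p of 0.05 and open grey points did not. The first panel separates Slc1a2, Oat, Cyp2e1 and Cyp2f2 (lower with WD) from Glul, Axin2, Rnf43 and Tbx3 (higher), the next 2 panels show Slc1a2, Oat and Cyp2e1 higher with AN1284 on WD, and the last 2 show Axin2, Rnf43 and Tbx3 higher with AN1284 on ND.

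Since Axin2, Rnf43 and Tbx3 were lowest in ND saline livers, the diets were also compared within each dose, a comparison added after the values were seen. At 1 mg/kg/day 2 of the 10 members passed, both lower with WD, where 13.0% of all genes passed. Tbx3 had 746, 1254, 1068 and 881 normalized counts in WD livers and 1963, 1427 and 1588 in ND livers (log2 fold change -0.76, SE 0.24, adjusted p = 0.0404), and Rnf43 had 404, 456, 560.4 and 349.8 in WD livers and 569, 853 and 526 in ND livers (log2 fold change -0.54, SE 0.16, adjusted p = 0.0366). The direction was the opposite of that in saline-treated mice. In the comparison at 5 mg/kg/day 1 member passed, Glul, with 41444, 46359 and 37274 in WD livers and 29976, 31713 and 26187 in ND livers (log2 fold change 0.51, SE 0.14, adjusted p = 0.0485), where 3.07% of all genes passed. These 3 calls were near the threshold, and each was lost without any of several single libraries. For Tbx3 these were any ND library or WD replicate 1 or 4 (adjusted p 0.0663 to 0.14), for Rnf43 ND replicate 2 or WD replicate 1, 2 or 4 (0.0602 to 0.244), and for Glul any of the 6 but WD replicate 3 (0.0791 to 0.218). All 3 were also lost without trend and robust estimation (0.0569 to 0.0653). Cyp2f2 was at 19494, 21411, 27582 and 25448 in WD livers and 35348, 37246 and 34713 in ND livers at 1 mg/kg/day, without overlap and without passing (log2 fold change -0.62, SE 0.24, adjusted p = 0.0957). At the higher dose it was at 23784, 14108 and 28375 in WD livers and 31372, 33539.8 and 39843 in ND livers (log2 fold change -0.71, SE 0.25, adjusted p = 0.152). When only the 2 groups at a dose were fitted, Rnf43 at 1 mg/kg/day and Glul at 5 mg/kg/day did not pass (adjusted p = 0.144 and 0.0577), whereas Axin2 and Cyp2f2 passed as lower with WD at 1 mg/kg/day (0.0433 and 0.0344).

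AN1284 was compared with saline on WD to ask what the compound did in the diet-fed liver. At 1 mg/kg/day Slc1a2, Oat, Cyp2e1 and Cyp2f2, the 4 genes that WD lowered, rose, and Rnf43 fell. These were 5 of the 10 members, where 22.9% of all genes passed. With 5 mg/kg/day Slc1a2, Oat and Cyp2e1 rose and Rnf43 fell, which made 4 of 10, where 12.5% of all genes passed. Both comparisons share the WD saline libraries with each other and with the diet comparison, so an opposite sign to the diet is in part built in. Scaling by library totals shifted the median of all genes by -0.233 at 1 mg/kg/day and -0.222 at 5 mg/kg/day. It gave 720 higher and 4056 lower genes at 1 mg/kg/day, where the authors' size factors gave 1520 and 1856, and 428 and 2698 at 5 mg/kg/day, where they gave 813 and 1036.

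Cyp2e1 reached 176411, 142277, 193817 and 184051 normalized counts at 1 mg/kg/day, and every one of these 4 values was above the WD saline range given above (log2 fold change 0.94, SE 0.13, adjusted p = 7.77e-05). The higher dose gave 144090.0, 175594 and 163293 (log2 fold change 0.83, SE 0.14, adjusted p = 0.00101). Oat had 23158, 13256, 23784 and 20982 at 1 mg/kg/day (log2 fold change 0.97, SE 0.19, adjusted p = 0.00108) and 25428, 21984 and 21253 at 5 mg/kg/day (log2 fold change 1.18, SE 0.20, adjusted p = 0.000897). Slc1a2 had 5365, 4158, 5186 and 5320.3 at 1 mg/kg/day (log2 fold change 1.04, SE 0.18, adjusted p = 0.000426) and 5534, 5506 and 4286 at 5 mg/kg/day (log2 fold change 1.06, SE 0.19, adjusted p = 0.00137). In all 3 genes no treated WD library overlapped the WD saline libraries, and the rises were 1.77- to 2.26-fold. The share of all genes without such overlap is not given here.

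Cyp2f2 had 19494, 21411, 27582 and 25448 normalized counts at 1 mg/kg/day, a 1.79-fold rise that overlapped WD saline in 1 library (log2 fold change 0.84, SE 0.24, adjusted p = 0.0163). The call was lost without WD saline replicate 3, the lowest library (log2 fold change 0.51, adjusted p = 0.134), when libraries were scaled by their totals (0.60, adjusted p = 0.0503) and when only these 2 groups were fitted (adjusted p = 0.0539). The higher dose gave 23784, 14108 and 28375, which did not pass (log2 fold change 0.70, SE 0.25, adjusted p = 0.0811), although it did without WD saline replicate 2 or WD 5 mg/kg/day replicate 2 (adjusted p = 0.0134 and 0.0149).

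Rnf43 had 404, 456, 560.4 and 349.8 normalized counts at 1 mg/kg/day (log2 fold change -0.48, SE 0.16, adjusted p = 0.0412) and 417, 372 and 402 at 5 mg/kg/day (log2 fold change -0.62, SE 0.18, adjusted p = 0.0253). Neither dose overlapped WD saline, but the call was lost when any of 6 of the 7 libraries at 1 mg/kg/day, or any of the 6 at 5 mg/kg/day, was left out (adjusted p 0.0595 to 0.134 and 0.0502 to 0.0833). The call at 1 mg/kg/day was also lost without trend and robust estimation (adjusted p = 0.0606). Tbx3 had 781, 658 and 705 at 5 mg/kg/day, all below the WD saline libraries, without passing (log2 fold change -0.68, SE 0.25, adjusted p = 0.0913), though it did when libraries were scaled by their totals (log2 fold change -0.90, adjusted p = 0.0152) or only these 2 groups were fitted (adjusted p = 0.00907). Axin2 had 278, 252 and 206 at 5 mg/kg/day (log2 fold change -0.45, SE 0.28, adjusted p = 0.331). Axin2 and Tbx3 overlapped WD saline at 1 mg/kg/day, with log2 fold changes of -0.18 and -0.23 (adjusted p = 0.664 and 0.519). Glul, Lgr5 and Rhbg passed at neither dose. Glul had 36873, 30659, 36828 and 36371 at 1 mg/kg/day and 41444, 46359 and 37274 at 5 mg/kg/day, with 95% intervals of the log2 fold change of -0.42 to 0.11 and -0.20 to 0.37. Glul passed as lower at 1 mg/kg/day under library totals (-0.39, adjusted p = 0.0275). Lgr5 had 199, 161, 163 and 103 at 1 mg/kg/day and 265, 263 and 135 at 5 mg/kg/day, and Rhbg 48.8, 34, 71.8 and 85.2 and 103, 46.8 and 64.4 at the same doses.

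The 5 and 1 mg/kg/day doses on WD did not differ in any member by this test. None of the 14743 genes passed limma's adjusted p (0%, and 0 of 10 members), and limma with voom weights on the raw counts also gave 0. At an unadjusted p below 0.05 there were 776 genes and 0 members. The members' log2 differences ran from -0.44 (Tbx3, 95% interval -0.94 to 0.05) to 0.47 (Lgr5, -0.27 to 1.21). With 3 and 4 livers these intervals also allow larger differences between the doses. Glul was the only member whose libraries did not overlap between the doses. It had 37274 to 46359 normalized counts at 5 mg/kg/day and 30659 to 36873 at 1 mg/kg/day. Its log2 difference was 0.24, with a 95% interval of -0.024 to 0.51, and it did not pass (limma adjusted p = 0.998). The share of all genes without such overlap is not given here, so the separation of Glul is not read as a dose effect.

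Against ND saline livers, the treated WD livers showed which members were away from the level of the untreated normal diet. In WD livers with 1 mg/kg/day 4 members passed, where 30.4% of all genes did, with Axin2, Rnf43 and Tbx3 higher and Cyp2f2 lower. With 5 mg/kg/day 5 passed, where 30.8% of all genes did, with Glul, Axin2, Rnf43 and Tbx3 higher and Cyp2f2 lower. Cyp2f2 stayed 2.18-fold and 2.39-fold lower at 1 and 5 mg/kg/day (log2 fold change -1.12, SE 0.24, adjusted p = 0.00209, and -1.26, SE 0.25, adjusted p = 0.00175). Rnf43 was higher by 1.02 and 0.88 on the log2 scale (adjusted p = 0.000249 and 0.00154). The Glul difference at 5 mg/kg/day was 0.53 (SE 0.14, adjusted p = 0.00749). The calls of Axin2 at both doses and of Tbx3 at 5 mg/kg/day were lost without ND saline replicate 1 (adjusted p = 0.0532, 0.301 and 0.234, with log2 fold changes of 0.61, 0.34 and 0.40). At 5 mg/kg/day the Axin2 call was also lost without ND saline replicate 2 or WD 5 mg/kg/day replicate 1 or 2 (adjusted p 0.0632 to 0.147), and that of Tbx3 without ND saline replicate 2 or any WD 5 mg/kg/day library (0.0678 to 0.12). Both were lost when only these 2 groups were fitted (0.12 for Axin2 and 0.0951 for Tbx3), without trend and robust estimation (0.0663 and 0.0586) and without a filter on low values (0.058 and 0.0537), and Axin2 with voom weights (0.0596). Cyp2e1, Oat and Slc1a2 did not pass at either dose, with 95% intervals for Cyp2e1 of -0.20 to 0.36 at 1 mg/kg/day and -0.33 to 0.27 at 5 mg/kg/day. Under library totals, which shifted the median of all genes by 0.195 and 0.206 and gave 4172 higher and 838 lower genes at 1 mg/kg/day (2496 and 1992 with the authors' size factors) and 4176 and 916 at 5 mg/kg/day (2462 and 2081), Slc1a2 passed as higher at both doses (adjusted p = 0.0439 and 0.0425) and Glul at 1 mg/kg/day (adjusted p = 0.0076).

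On ND, AN1284 was compared with saline to ask what it did without the diet. Axin2, Rnf43 and Tbx3 rose at both doses, and no other member passed. These were 3 of 10 members at 1 mg/kg/day, where 4.63% of all genes passed, and 3 of 10 at 5 mg/kg/day, where 10.2% passed. The ND saline libraries are shared with the diet comparison. Scaling by library totals shifted the median of all genes by 0.161 at 1 mg/kg/day and 0.15 at 5 mg/kg/day, and the 3 genes passed under it too. It gave 1417 higher and 138 lower genes at 1 mg/kg/day, where the authors' size factors gave 427 and 256, and 1943 and 249 at 5 mg/kg/day, where they gave 925 and 574.

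Tbx3 had 1963, 1427 and 1588 normalized counts at 1 mg/kg/day and rose 3.78-fold (log2 fold change 1.92, SE 0.25, adjusted p = 0.000401). Axin2 had 549, 455 and 386 and rose 3.16-fold (log2 fold change 1.66, SE 0.28, adjusted p = 0.00225). Rnf43 had 569, 853 and 526 and rose 2.95-fold (log2 fold change 1.56, SE 0.18, adjusted p = 6.52e-05). No library of this dose overlapped ND saline in any of the 3 genes, and the 3 log2 fold changes stood at percentiles 99.8 to 99.9 of all genes tested. The share of all genes without such overlap is not given here. Rnf43 had 506, 474 and 567 at 5 mg/kg/day, again without overlap (log2 fold change 1.26, SE 0.18, adjusted p = 0.000576). Axin2 had 308, 322 and 199.8 (log2 fold change 0.90, SE 0.28, adjusted p = 0.0464) and Tbx3 768, 971 and 702 (log2 fold change 0.89, SE 0.25, adjusted p = 0.0345), and for both genes 1 treated library lay below the highest ND saline library. Without ND saline replicate 1 these last log2 fold changes were 0.50 and 0.58 and no longer passed (adjusted p = 0.207 and 0.151). The Axin2 call was also lost without ND saline replicate 2 or ND 5 mg/kg/day replicate 1 or 2 (adjusted p 0.0547 to 0.16), and that of Tbx3 without ND saline replicate 2 or any ND 5 mg/kg/day library (0.0604 to 0.137). The Rnf43 call held without any single library. When only the 2 groups compared were fitted, Axin2 did not pass at either dose (adjusted p = 0.0836 at 1 mg/kg/day and 0.159 at 5 mg/kg/day), nor did Tbx3 at 5 mg/kg/day (0.115). At 5 mg/kg/day both also missed the threshold without trend and robust estimation (0.0668 for Axin2 and 0.0536 for Tbx3), and Axin2 with voom weights (0.0619) and without a filter on low values (0.0567).

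No metabolic member passed on ND. Glul had 37530.3, 29619 and 26894 normalized counts at 1 mg/kg/day and 29976, 31713 and 26187 at 5 mg/kg/day. Cyp2e1 had 170511, 180189 and 163867 at 1 mg/kg/day and 193509, 173335 and 163918 at 5 mg/kg/day. For Cyp2e1 the 95% intervals of the log2 fold change were -0.23 to 0.37 and -0.19 to 0.41. Cyp2f2 had 35348, 37246 and 34713 at 1 mg/kg/day and 31372, 33539.8 and 39843 at 5 mg/kg/day, each value below every ND saline library. These differences did not pass (log2 fold change -0.51, SE 0.25, adjusted p = 0.276 at 1 mg/kg/day and log2 fold change -0.55, SE 0.25, adjusted p = 0.169 at 5 mg/kg/day), but that at 5 mg/kg/day did when only these 2 groups were fitted (adjusted p = 0.0365).

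The difference between the AN1284 effect on WD and that on ND was tested directly as an interaction. At 1 mg/kg/day 7 of 10 members passed, where 20.6% of all genes did. Axin2, Rnf43 and Tbx3 had negative interactions (-1.84, -2.04 and -2.15 on the log2 scale, adjusted p = 0.00281, 3.05e-05 and 0.000413). Slc1a2, Oat, Cyp2e1 and Cyp2f2 had positive ones, from 0.77 for Slc1a2 (SE 0.27, adjusted p = 0.0459) to 1.34 for Cyp2f2 (SE 0.35, adjusted p = 0.0117). The interaction at 5 mg/kg/day passed in 6 of 10, where 20.2% of all genes did, and Slc1a2 was no longer among them (0.74, SE 0.27, adjusted p = 0.0606). Scaling by library totals shifted the median interaction of all genes by -0.39 at 1 mg/kg/day and by -0.37 at 5 mg/kg/day, and under it the positive interactions of Slc1a2, Oat and Cyp2e1 at 1 mg/kg/day did not pass (adjusted p = 0.299, 0.12 and 0.0616), nor did those of Oat, Cyp2e1 and Cyp2f2 at 5 mg/kg/day (0.127, 0.189 and 0.0579 for these genes, as adjusted p). Glul passed under it with a negative interaction at 1 mg/kg/day (-0.67, adjusted p = 0.0113). Library totals gave 501 higher and 4832 lower at 1 mg/kg/day, where the authors' size factors gave 1385 and 1659, and 446 and 4541 at 5 mg/kg/day, where they gave 1259 and 1714. The negative interactions of Axin2, Rnf43 and Tbx3 passed under both scalings. Several calls were lost when 1 library was left out. For Slc1a2 at 1 mg/kg/day this was so for 10 of the 13 libraries, all but ND 1 mg/kg/day replicate 1, WD saline replicate 1 and WD 1 mg/kg/day replicate 2 (adjusted p 0.0516 to 0.127), and when only the 4 groups involved were fitted it passed at 5 mg/kg/day (0.0364) and not at 1 mg/kg/day (0.0797). At 1 mg/kg/day it was also lost without a filter on low values (0.0513) and without trend and robust estimation (0.0696). At 5 mg/kg/day the Axin2 call was lost without WD saline replicate 1, WD 5 mg/kg/day replicate 3 or ND 5 mg/kg/day replicate 2 (0.0588 to 0.0614), and that of Oat without WD saline replicate 2, WD 5 mg/kg/day replicate 1 or ND 5 mg/kg/day replicate 2 or 3 (0.0525 to 0.0585). Cyp2e1 lost its call there without WD saline replicate 1 or WD 5 mg/kg/day replicate 2 (0.0563 and 0.0507), and Cyp2f2 without WD saline replicate 3 or WD 5 mg/kg/day replicate 3 (0.0544 and 0.0615).

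The balance of pericentral against periportal expression was then taken within each library, which removes the library scaling. The ratio of Glul to Cyp2f2 is one of normalized counts, without a correction for gene length, and only its differences between libraries are described. It was 3.09, 1.80 and 4.85 in WD saline livers, 1.89, 1.43, 1.33 and 1.43 at 1 mg/kg/day on WD, and 1.74, 3.29 and 1.31 at 5 mg/kg/day on WD. It was 0.506, 0.581 and 0.616 in ND saline livers, 1.06, 0.795 and 0.775 at 1 mg/kg/day on ND, and 0.956, 0.946 and 0.657 at 5 mg/kg/day on ND. No WD library overlapped an ND library in this ratio. Cyp2f2 alone separated the diets too, with at most 28375 normalized counts in WD libraries and at least 31372 in ND libraries. The separation is therefore not particular to Glul, and the share of all genes whose ratio to Cyp2f2 separates the diets is not given here. The ratio of Cyp2e1 to Cyp2f2 did overlap, at 4.84 to 12.83 in WD saline livers and 4.11 to 6.17 at 5 mg/kg/day on ND. Its group means on WD were 7.7 with saline, 7.5 at 1 mg/kg/day and 8.1 at 5 mg/kg/day. Averaged over the 9 pericentral members, the log2 value minus that of Cyp2f2 was -2.89 ± 0.72 in WD saline livers (SD, n = 3), -3.50 ± 0.17 at 1 mg/kg/day (n = 4) and -3.34 ± 0.58 at 5 mg/kg/day (n = 3). It was -4.98 ± 0.22 in ND saline livers, -3.87 ± 0.18 at 1 mg/kg/day and -4.01 ± 0.24 at 5 mg/kg/day on ND (n = 3 each). The ND saline libraries, at -5.22 to -4.81, lay below all others, and the WD saline libraries spread from -3.63 to -2.20. The diets overlapped in this mean, with -3.92 in WD 5 mg/kg/day replicate 3 and -3.76 in ND 1 mg/kg/day replicate 1.

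**Figure D3:**
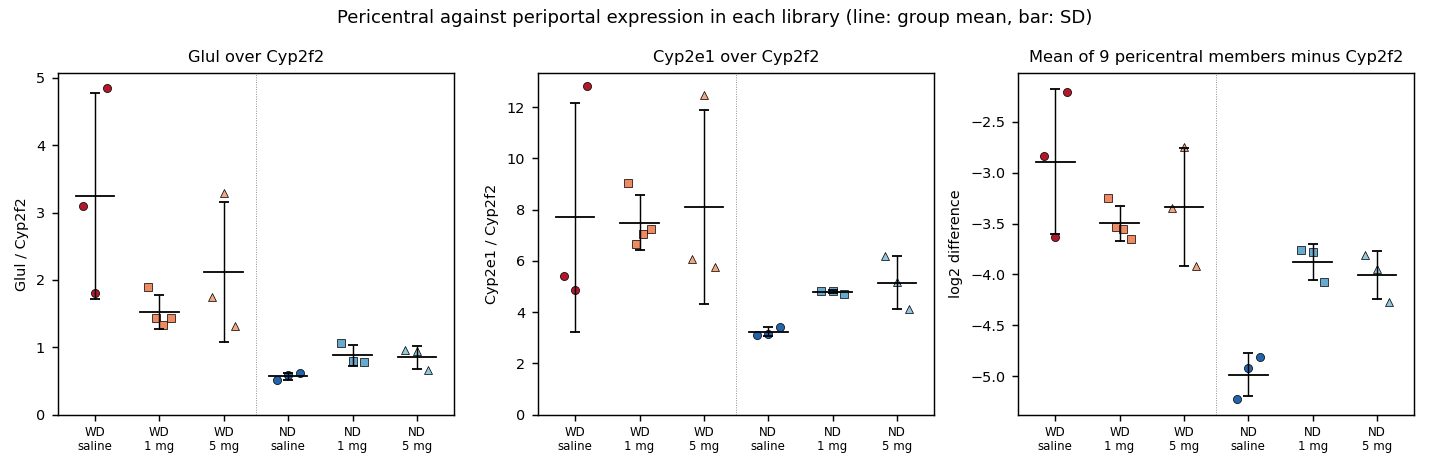
The ratio of Glul to Cyp2f2 (left), the ratio of Cyp2e1 to Cyp2f2 (middle) and the mean log2 value of 9 pericentral members minus that of Cyp2f2 (right), on the y axes, in each library by diet and AN1284 dose in mg/kg/day (x axes). Points are libraries, lines group means and bars SD. The Glul ratio was 1.31 to 4.85 in WD libraries and 0.506 to 1.06 in ND libraries. The Cyp2e1 ratio overlapped between the diets, at 4.84 to 12.83 in WD saline libraries and 4.11 to 6.17 in ND libraries at 5 mg/kg/day.

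Each pericentral gene was also tested against Cyp2f2. All of these tests subtract the same Cyp2f2 values, so they are not independent of each other, and limma's shared estimate of spread does not account for this. In WD saline against ND saline livers all 9 were higher relative to Cyp2f2, from 1.01 (SE 0.39, adjusted p = 0.0175) for Oat to 3.47 (SE 0.33, adjusted p = 1.9e-08) for Rnf43 on the log2 scale. However, 92.8% of all genes tested passed this test, since Cyp2f2 itself fell so far, so the count says nothing particular about the 9. Without WD saline replicate 3 those of Slc1a2 and Oat did not pass (adjusted p = 0.054 and 0.146). Relative to Cyp2f2, 4 of the 9 were lower at 1 mg/kg/day than with saline on WD. These were Glul, at -0.99 (SE 0.34, adjusted p = 0.022), Axin2, Rnf43 and Tbx3. Of all genes 55.2% passed, 8018 lower and 118 higher. With 5 mg/kg/day 2 of the 9 were lower, Rnf43 and Tbx3, at -1.32 (SE 0.33, adjusted p = 0.0113) and -1.38 (SE 0.37, adjusted p = 0.0161). Of all genes 18.3% passed at that dose, 2637 lower and 59 higher. The first count was below the share of all genes and the second near it, so neither says anything particular about the 9. Slc1a2, Oat and Cyp2e1 did not differ from Cyp2f2 in their AN1284 response at either dose by this test, for Cyp2e1 0.10 (SE 0.33, adjusted p = 0.795) at 1 mg/kg/day and 0.12 (SE 0.35, adjusted p = 0.762) at 5 mg/kg/day. These counts rested on single libraries. Only 1 member passed at 1 mg/kg/day without WD saline replicate 3 or WD 1 mg/kg/day replicate 4, and 2 without WD saline replicate 1 or WD 1 mg/kg/day replicate 3. At 5 mg/kg/day 0 passed without WD saline replicate 3 or WD 5 mg/kg/day replicate 1 or 3, and 4 without WD saline replicate 2 or WD 5 mg/kg/day replicate 2.

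Across the 19 libraries some of the members formed 2 sets by correlation of their log2 values, given here as a description of libraries that share groups and scaling. Axin2 and Tbx3 followed each other most closely (Pearson r = 0.951, and 0.846 after the group means were taken out). Rnf43 correlated with Tbx3 (0.811) and Axin2 (0.809), and less within groups (0.257 and 0.337). Oat, Cyp2e1 and Slc1a2 formed the second set (0.844 for Oat and Cyp2e1, 0.840 for Slc1a2 and Oat, 0.780 for Slc1a2 and Cyp2e1), with within-group values of 0.408, 0.473 and 0.0509. Glul and Cyp2f2 ran against each other (-0.741, and -0.353 within groups). Glul and Slc1a2, neighbours in glutamate handling, had 0.0227 over all libraries and 0.818 within groups. Lgr5 correlated with no other member beyond 0.399 over all libraries. Outside the 2 sets, Rhbg had 0.602 with Oat and 0.544 with Cyp2f2, and Cyp2e1 had 0.581 with Cyp2f2.

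**Figure D4:**
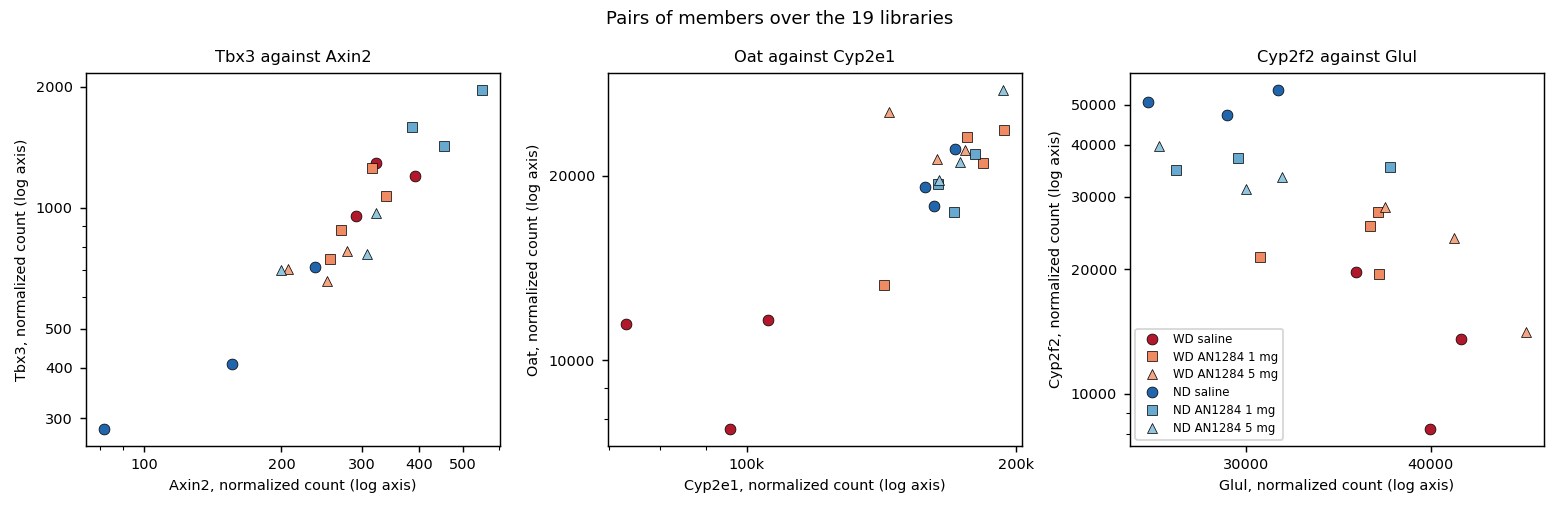
Normalized counts of 3 pairs of members in the 19 libraries, both axes logarithmic, Tbx3 against Axin2 (left), Oat against Cyp2e1 (middle) and Cyp2f2 against Glul (right). Red and orange points are WD libraries, blue points ND libraries, with circles for saline, squares for 1 mg/kg/day and triangles for 5 mg/kg/day. The r of the log2 values was 0.951, 0.844 and -0.741.

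Of the 10026 other genes with a mean of at least 100 normalized counts, the 5 most like Glul over the 19 libraries were Slc13a3 (r = 0.890), Erlin2 (0.877), Fnbp1l (0.874), Snap29 (0.873) and Cdc27 (0.869). Slc13a3, a transporter of dicarboxylates that is also pericentral, averaged 1588 ± 214 normalized counts in WD saline livers and 708 ± 259 in ND saline livers. The 5 most like Cyp2f2 were Bdh2 (0.963), Apol9b (0.958), Cyp2c23 (0.941), Cyp2d26 (0.939) and Gls2 (0.936). Gls2, the liver glutaminase of periportal hepatocytes, averaged 1699 ± 433 in WD saline livers and 10320.0 ± 239 in ND saline livers. Taking out the group means left r between 0.644 and 0.932 for these 5. Apol9b and the Cyp2c and Cyp2d genes belong to families of near-identical copies, so their counts are uncertain.

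The other zonation genes gave the setting for Cyp2f2. Of 17 other periportal genes, 13 fell with WD and none rose in WD saline against ND saline livers (median log2 fold change -1.52, against 0.00988 for all genes). Hal, Sds, Pck1 and Gls2, which break down amino acids or make glucose, fell the most, with log2 fold changes of -3.34 (SE 0.29, adjusted p = 1.53e-07) for Hal, -2.88 (adjusted p = 5.11e-07) for Sds, -2.68 (SE 0.23, adjusted p = 8.39e-08) for Pck1 and -2.63 (adjusted p = 6.36e-09) for Gls2. With AN1284 on WD 13 rose and 2 fell at 1 mg/kg/day (median 1.13, against 0.00717 for all genes), and 12 rose and 1 fell at 5 mg/kg/day (0.98, against -0.00572). Hal averaged 6728 ± 970.5 normalized counts at 1 mg/kg/day and 986 ± 515 in WD saline livers. All 4 mid-lobular genes fell with WD, among them Hamp, the iron hormone hepcidin (-1.86, adjusted p = 0.00055), and 3 rose at 1 mg/kg/day. Of 16 other pericentral genes, 9 fell and 2 rose with WD (median -0.66). Cyp2c37, Cyp1a2, Cyp2c50 and Sult5a1, enzymes of drug and steroid metabolism, fell with log2 fold changes of -3.16 (adjusted p = 2e-08), -2.98 (adjusted p = 7.16e-11), -2.52 (adjusted p = 8.01e-09) and -3.77 (adjusted p = 3.45e-05). The 2 that rose were Slc13a3 and Aldh3a2, a fatty aldehyde dehydrogenase named after its value was seen (log2 fold change 1.74, adjusted p = 7.69e-07). With AN1284 on WD, 6 of the 16 rose and 3 fell at 1 mg/kg/day, and 6 rose and 2 fell at 5 mg/kg/day. On ND, 4 fell and none rose at each dose, and 2 and 0 fell at 1 and 5 mg/kg/day when libraries were scaled by their totals. In WD saline against ND saline livers that scaling gave 12 lower and 2 higher periportal and 7 lower and 5 higher pericentral genes.

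Further genes of the Wnt pathway were described from lists that were chosen with earlier results of these data known. Among 10 tested ligands, R-spondins and secretion genes, 5 rose and 2 fell with WD (median 0.61), where 53.0% of all genes passed, and under library totals 6 rose and 1 fell (median 1.03). Wnt5a, a ligand of β-catenin-independent signalling, averaged 122 ± 18.9 normalized counts in WD saline livers against 27.4 ± 12.9 in ND saline livers, and was lower with AN1284 on WD, at 32.4 ± 8.46 with 1 mg/kg/day (-1.90, adjusted p = 0.00011) and 45.6 ± 15.7 with 5 mg/kg/day (-1.45, adjusted p = 0.00401). Wls, the carrier that exports Wnt proteins, rose with a log2 fold change of 1.47 (SE 0.22, adjusted p = 3.31e-05), while Porcn, which acylates them, fell with -1.62 (SE 0.20, adjusted p = 4.36e-06). Of the central vein ligands Wnt9b fell (-1.20, SE 0.42, adjusted p = 0.0223), but not under library totals (-0.79, adjusted p = 0.114). Wnt2 and Rspo3, named after their values were seen, rose with log2 fold changes of 0.76 (adjusted p = 0.0158) and 0.54 (adjusted p = 0.0391). On ND no gene of this list passed at either dose, and under library totals 1 rose at each, Wnt5a at 1 mg/kg/day and Wnt2 at 5 mg/kg/day.

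Of 13 tested receptors and co-receptors 5 rose and 2 fell with WD (median 0.39), a share close to the 53.0% of all genes, and under library totals 8 rose and none fell (median 0.82). Fzd4 and Fzd1, Frizzled receptors of the kind that Rnf43 removes, rose in the same comparisons as Rnf43. Fzd4 averaged 913 ± 27.2 normalized counts in WD saline livers against 390.0 ± 54.8 in ND saline livers (1.23, adjusted p = 2.26e-07). On ND it averaged 854 ± 42.9 with 1 mg/kg/day (1.14, adjusted p = 4.56e-05) and 748 ± 37.6 with 5 mg/kg/day (0.95, adjusted p = 0.000158). Fzd1 and Fzd7 likewise rose with WD and with both doses on ND, Fzd1 by 1.07 (adjusted p = 5.3e-07) with WD and 0.74 (adjusted p = 0.000646) with 1 mg/kg/day on ND. In all, 4 of 13 rose at 1 mg/kg/day on ND and 5 at 5 mg/kg/day, and none fell. Lgr4, another R-spondin receptor, averaged 997 ± 45.9 in WD saline livers and 1808 ± 441 in ND saline livers (-0.83, adjusted p = 0.000371), a fall that did not pass under library totals (-0.40, adjusted p = 0.0503), and 1696 ± 188 with 1 mg/kg/day on WD (0.76, adjusted p = 0.00137).

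Among 7 tested Wnt feedback and target genes other than the members, 2 rose and 1 fell with WD (median 0.30), where 53.0% of all genes passed, and under library totals 5 rose and 1 fell (median 0.74). Ccnd1 (cyclin D1) rose with a log2 fold change of 2.55 (SE 0.19, adjusted p = 1.83e-08) and Tcf7, a TCF factor, with 0.57 (SE 0.16, adjusted p = 0.00569). Notum, an enzyme that inactivates Wnt proteins, fell (-1.09, SE 0.15, adjusted p = 1.05e-05), and with AN1284 on WD it rose at 1 mg/kg/day (0.67, adjusted p = 0.00162) and at 5 mg/kg/day (0.60, adjusted p = 0.0101), the last not under library totals (0.38, adjusted p = 0.0837). Of 4 tested secreted or membrane inhibitors 3 rose with WD, Frzb with a log2 fold change of 2.64 (SE 0.46, adjusted p = 0.000132), Dkk3 with 1.34 (SE 0.27, adjusted p = 0.0005) and Kremen1 with 0.66 (SE 0.13, adjusted p = 0.000345), and Frzb and Dkk3 fell with AN1284 on WD at both doses. The 16 genes of the β-catenin destruction complex and its TCF partners held few calls. With WD 3 rose and 3 fell (median -0.17), among them Dvl2 at -0.84 (adjusted p = 0.00151) and Csnk1e at 0.48 (adjusted p = 0.0124), and under library totals 8 rose and none fell. No more than 2 passed in any comparison of AN1284 with saline on the same diet with the authors' size factors, and up to 6 under library totals.

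**Figure D5:**
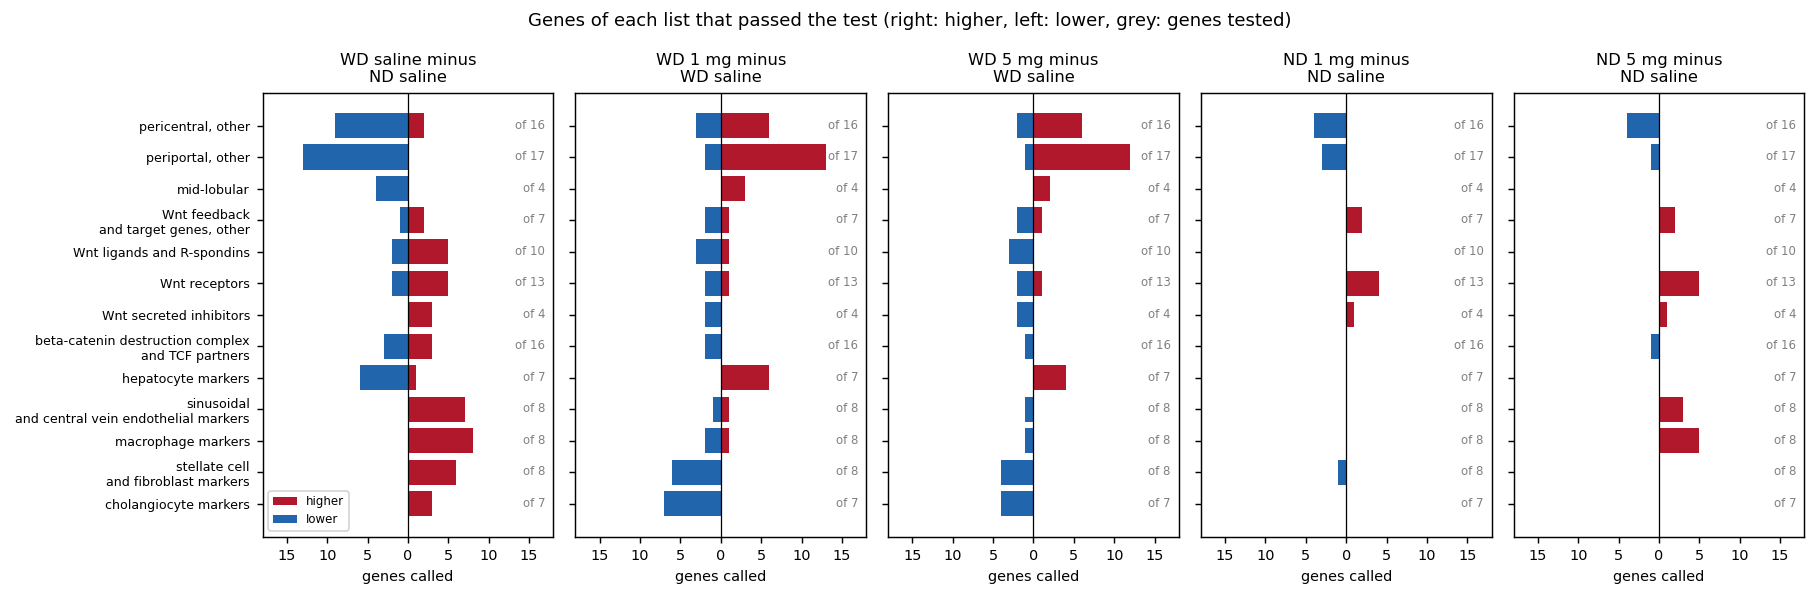
Number of genes (x axis) in each of 13 lists (rows) that passed an adjusted p of 0.05 in 5 comparisons (panels), higher to the right in red and lower to the left in blue, with the number tested in grey. With WD 13 of 17 periportal genes were lower and all 8 macrophage markers higher, and on ND only Wnt receptors, other Wnt targets, a Wnt inhibitor, endothelial markers and macrophage markers held genes that were higher with AN1284. Of all genes tested, 53.0% passed in WD saline against ND saline livers, and 4.63% and 10.2% with 1 and 5 mg/kg/day on ND.

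Markers of other liver cells moved with the groups. In WD saline against ND saline livers 7 of 8 endothelial, 8 of 8 macrophage, 6 of 8 stellate cell and fibroblast and 3 of 7 cholangiocyte markers rose, and none of them fell, while 6 of 7 hepatocyte markers fell and 1 rose. Of all genes tested, 53.0% passed in this comparison. The summed normalized count of the sinusoidal and central vein endothelial markers was 5184 to 8158 in WD saline livers and 3316 to 3505 in ND saline livers. This sum does not set apart the central vein cells that secrete Wnt ligands. With AN1284 on WD it was 5466 to 6525 at 1 mg/kg/day and 5101 to 6250 at 5 mg/kg/day, and 1 of 8 rose and 1 fell at 1 mg/kg/day and 1 fell at 5 mg/kg/day against WD saline. The summed macrophage markers were 11690 to 20100 in WD saline livers and 4037 to 6117 in ND saline livers. The stellate cell and fibroblast markers summed to 13500 to 19000 in WD saline livers and 3070 to 3834 in ND saline livers, and the cholangiocyte markers to 7705 to 13120 in WD saline livers and 2360 to 3565 in ND saline livers. With AN1284 on WD, where Slc1a2, Oat and Cyp2e1 rose at both doses and Cyp2f2 at 1 mg/kg/day, stellate cell and cholangiocyte markers fell and hepatocyte markers rose. Of all genes tested, 22.9% passed at 1 mg/kg/day and 12.5% at 5 mg/kg/day against WD saline. The stellate cell and fibroblast sum was 3330 to 6234 at 1 mg/kg/day (6 of 8 fell) and 4596 to 6897 at 5 mg/kg/day (4 of 8 fell). The cholangiocyte sum was 1527 to 2281 at 1 mg/kg/day (7 of 7 fell) and 1713 to 3993 at 5 mg/kg/day (4 of 7 fell). None of these treated libraries overlapped WD saline in either sum. The hepatocyte sum was 2262000 to 2645000 at 1 mg/kg/day (6 of 7 rose) and 1885000 to 2468000 at 5 mg/kg/day (4 of 7 rose), all above WD saline, and under library totals 4 rose and 1 fell at 1 mg/kg/day and 2 rose at 5 mg/kg/day. The macrophage sum was 13420 to 19670 at 1 mg/kg/day and 15420 to 17370 at 5 mg/kg/day, within the WD saline range. Single macrophage markers did change. Of 8, 1 rose and 2 fell at 1 mg/kg/day (log2 fold changes of all 8 from -4.61 to 0.897). At 5 mg/kg/day 1 fell and none rose (-2.99 to 0.765). On ND the 1 mg/kg/day livers, in which Axin2, Rnf43 and Tbx3 had their highest group means, had 3619 to 4017 for the endothelial and 3837 to 7628 for the macrophage markers, and none of these 16 markers passed against ND saline. With 5 mg/kg/day on ND the sums were 4497 to 6114 and 9900 to 13440, and 3 endothelial and 5 macrophage markers rose. Of all genes tested, 4.63% passed at 1 mg/kg/day and 10.2% at 5 mg/kg/day against ND saline. The hepatocyte marker Tf was without a value. The part of these cells in the changes of the members was not tested.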

How the data were processed

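Total liver RNA was polyA-selected and sequenced with a stranded kit. Per the submitters' processing notes the authors used cutadapt 1.18, TopHat2 2.1.1, HTSeq 0.6.0 and DESeq2 1.22.1 with the GRCm38 build, and the strand setting of the counting is not given in the sources used here. The authors deposited raw counts and normalized counts per library, a normalized count being the raw count divided by a DESeq2 size factor (taken as score values). Raw counts are missing for 6252 genes and normalized counts for 34405, so the raw values (unit other) served only for depth and an alternative fit, and count models were not run. Columns with the authors' fold changes and p-values were not used.

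Log2(normalized count + 1) of the 14743 genes reaching 10 in at least 3 libraries was fitted with limma 3.58.1 (R 4.3.3; trend, robust) over 6 groups, with Benjamini-Hochberg adjustment over all genes and a threshold of 0.05. A fold change on this scale understates that of low genes. Tests relative to Cyp2f2 used each log2 value minus that of Cyp2f2. The fit was tested on simulated data with known changes. Named were the 10 members, the 5 genes most correlated with Glul and with Cyp2f2, and up to 4 genes per list with the largest passing change in WD saline against ND saline. The members and lists were chosen with earlier results of these data known. The comparisons of diet within each dose were added after the values were seen. Mice were separate animals, and which libraries shared a run is not given in the sources used here.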

Additional observations from a re-analysis of the deposited data

Results flagged for a closer look

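In WD livers with 1 mg/kg/day, replicate 2 stood apart from the other 3 libraries in 2 of the 10 members, with 30660 normalized counts of Glul (gap over range 0.919) and 4158 of Slc1a2 (0.852). Of 10 groups of 4 values tested, chance would give such a gap in about 1 in 20.

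The effect of AN1284 differed between WD and ND, by an interaction term of limma with Benjamini-Hochberg adjustment over all genes, in 7 members at 1 mg/kg/day and 6 at 5 mg/kg/day. At 1 mg/kg/day the difference of log2 fold changes (WD minus ND) was -1.842 for Axin2 (adjusted p = 0.00281), -2.043 for Rnf43 (adjusted p = 3.05e-05), -2.151 for Tbx3 (adjusted p = 0.000413), 0.7707 for Slc1a2 (adjusted p = 0.0459), 0.9849 for Oat (adjusted p = 0.0173), 0.868 for Cyp2e1 (adjusted p = 0.00499) and 1.344 for Cyp2f2 (adjusted p = 0.0117). At 5 mg/kg/day it was -1.35 for Axin2 (adjusted p = 0.0229), -1.879 for Rnf43 (adjusted p = 0.000195), -1.565 for Tbx3 (adjusted p = 0.00694), 0.9753 for Oat (adjusted p = 0.0229), 0.7173 for Cyp2e1 (adjusted p = 0.0203) and 1.251 for Cyp2f2 (adjusted p = 0.0221). All of these rest on the same 3 ND saline libraries. Under library totals the positive differences of Slc1a2, Oat and Cyp2e1 at 1 mg/kg/day did not pass (adjusted p = 0.299, 0.12 and 0.0616). Nor did those of Oat, Cyp2e1 and Cyp2f2 at 5 mg/kg/day (adjusted p = 0.127, 0.189 and 0.0579).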

How the results depend on the processing

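Of 120 member values per alternative (10 members in 12 comparisons), direction and side of the threshold were kept by 105 under library totals, 120 under the upper quartile, 120 with a pseudocount of 0.5, 114 without a filter, 120 with a filter of 50, 118 with voom weights, 111 without trend and robust estimation and 106 with only the groups compared. With a pseudocount of 5, 146 of 147 values did, the tests relative to Cyp2f2 included. No called value changed sign. A sign change occurred in 88 values, called in neither setting. Of 1061 values with 1 library left out, 966 kept their side, 86 lost and 9 gained a call.

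The number of members called moved by over 1.5 times in these cases. Under library totals the interaction at 5 mg/kg/day had 3 and WD against ND at 1 mg/kg/day had 1. Without a filter, 5 mg/kg/day on WD against ND saline had 3, and WD against ND had 1 at 1 mg/kg/day and 0 at 5 mg/kg/day. Without trend and robust estimation, 5 mg/kg/day against saline on ND had 1, 5 mg/kg/day on WD against ND saline had 3, and WD against ND had 0 at each dose. With only the groups compared, 5 mg/kg/day on WD against ND saline had 3 and WD against ND at 5 mg/kg/day had 0. The cause was not tested.

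Leaving out 1 library gave 7 to 8 members for WD saline against ND saline, 3 to 5 and 3 to 4 for 1 and 5 mg/kg/day against saline on WD, 3 to 3 and 1 to 3 for the same doses on ND, 0 to 0 between the doses on WD, 3 to 4 and 3 to 5 for 1 and 5 mg/kg/day on WD against ND saline, 6 to 7 and 4 to 6 for the interactions at 1 and 5 mg/kg/day, and 0 to 2 and 0 to 1 for WD against ND at 1 and 5 mg/kg/day. Relative to Cyp2f2 it gave 7 to 9 for the diet, 1 to 6 for 1 mg/kg/day and 0 to 4 for 5 mg/kg/day.

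Replicate numbers shared by the labels did not pair the libraries (correlation of deviations from group means -0.169 to 0.229, in no comparison above 0.1 for all pairs). With the replicate block, in which the lone replicate 4 carries no weight, 1 mg/kg/day against saline on WD had 3 members called, 5 mg/kg/day against saline on ND had 1, 5 mg/kg/day on WD against ND saline had 3 and WD against ND had 0 at each dose. Of all genes, 2497 passed for 1 mg/kg/day on WD, and 3376 without the block. Rhbg, Axin2 and Lgr5 had the libraries with the fewest reads, which limits what their intervals can show.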
